A study of Homo sapiens with 30 samples.

Results

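The 10 genes described here encode the major cytosolic heat shock proteins and the chaperonin pair of the mitochondrial matrix. They are HSPA1A, HSPA1B, HSPA8, HSPH1, DNAJB1, HSP90AA1, HSPD1, HSPE1, FKBP4 and BAG3. They were taken by symbol from the 60675 Ensembl gene rows of 1 count table, all 10 were found, and all 10 passed the filter on low counts in both model fits. RNA was sequenced from HT29 cells, a human line derived from a colorectal adenocarcinoma, at 24 h of treatment. Treated cells received an ethanol extract of 1 of 4 traditional herbal formulas. Soshiho-tang and Yijin-tang had 3 libraries at each dose, Okbyeongpung-san had 2 and Soyo-san had 1, and cells given the solvent DMSO alone (vehicle) had 3. The doses were 20 µg/mL (low), 100 µg/mL (medium) and 500 µg/mL (high) by the labels, but the design text says that an extract whose IC20, an inhibitory concentration, lay below the top dose was used at that concentration and at dilutions of it, so the true doses are uncertain. Vehicle is 0.1% DMSO in the labels but 2% in the design text. All groups share 1 cell line. Nothing in the labels says that replicates came from separate cultures, so the p-values reflect only how far these libraries spread, which may be technical.

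The 30 libraries held 18.5 M to 36.2 M counts, and the 3 vehicle libraries held 25.4 M to 36.2 M. Library names place the vehicle libraries in a set of their own. Sample titles place Soyo-san and 1 of the 2 Okbyeongpung-san libraries per dose in batch D and every other library, vehicle included, in batch E, without saying what a batch is. A difference between extract and vehicle therefore cannot be told apart from a difference between library sets. All 10 colon epithelial markers were above 1 CPM (TMM-normalised counts scaled to the library total) on average, and 8 of 12 fibroblast, endothelial and immune markers were below 1 CPM. The lists overlapped in level, since the lowest epithelial marker averaged 2.93 CPM and the highest of the other markers 5.64 CPM. The summed epithelial markers lay between 11047 and 12792 CPM in extract libraries and between 12028 and 13885 CPM in vehicle. The 12 markers of other cell types summed to 9.72 to 12.9 CPM in extract libraries and to 10.0 to 14.9 CPM in vehicle. Mitochondrially encoded genes took 9.06% to 12.9% of counts in extract libraries and 11.5% to 13.9% in vehicle. The part of these shifts in the results below was not tested.

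Heat shock proteins are chaperones, which bind unfolded or newly made proteins and help them fold, assemble or be degraded. HSP70 proteins (HSPA1A, HSPA1B and HSPA8) bind exposed hydrophobic stretches in cycles of ATP hydrolysis. J-domain proteins such as DNAJB1 deliver clients and speed hydrolysis, and HSPH1 and BAG3 release the nucleotide. HSP90 (HSP90AA1) acts later on kinases and, with the immunophilin FKBP4, on steroid receptors, and HSPD1 with its lid HSPE1 forms a folding chamber in mitochondria. Under proteotoxic stress the transcription factor HSF1 forms trimers, binds heat shock elements and induces most of these genes. HSPA8 is also made at a high level without stress. Cancer cells, colorectal lines among them, commonly hold high levels of these chaperones.

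A heat shock element is built of inverted GAA units, so promoters were searched for the words GAANNTTC and TTCNNGAA in the 250 bases before each RefSeq start (GRCh38.p14). Both words read the same on either strand, and they can overlap each other. The RefSeq table held 13 windows for 9 of the 10 genes, with none for FKBP4. A match was found for 6 genes, HSPA1A, HSPA1B, HSPA8, DNAJB1, HSP90AA1 and HSPD1, while 11.6% of all 35116 promoter windows of that length held either word. That share is per window, whereas DNAJB1, HSP90AA1 and HSPD1 each had several windows that could hold a match. The count of genes and the share are therefore not directly comparable. A match is a description of the letters and not a measured site. Of the genes with a match, HSPA1A, HSPA1B, HSPA8 and DNAJB1 were lower in every extract library than in every vehicle library, while HSP90AA1 and HSPD1 overlapped. BAG3 held no match and was lower as well. A link between matches and RNA was not tested. The 3 stretches below, 120 bases each, were chosen because their matches lie outside annotated exons. No annotated exon overlaps them, and capitals mark GAANNTTC. The DNAJB1 stretch precedes an internal RefSeq start and lies inside the annotated span of the gene.
HSPA1A (chr6:31815344-31815463, plus strand, GRCh38): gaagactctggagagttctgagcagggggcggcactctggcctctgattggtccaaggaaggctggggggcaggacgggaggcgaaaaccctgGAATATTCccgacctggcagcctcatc
HSPA1B (chr6:31827615-31827734, plus strand, GRCh38): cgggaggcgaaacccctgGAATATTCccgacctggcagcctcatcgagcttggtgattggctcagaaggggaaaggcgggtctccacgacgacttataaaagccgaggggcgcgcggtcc
DNAJB1 (chr19:14518421-14518540, minus strand, GRCh38): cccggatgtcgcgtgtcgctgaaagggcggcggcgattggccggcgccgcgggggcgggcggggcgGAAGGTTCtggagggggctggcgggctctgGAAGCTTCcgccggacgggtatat
The HSPA1A and HSPA1B stretches share a run of 32 bases that includes the match, which begins at position -106 and -105 from the RefSeq start. The DNAJB1 stretch holds 2 matches, at -77 and -47.

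The tested differences between extract groups and vehicle lay between -0.61 and 0.35 on the log2 scale for these genes, and the direction depended on the gene and on whether vehicle or the low dose was the comparator. HSPA1A, HSPA1B, HSPA8, DNAJB1 and BAG3 were lower in each of the 27 extract libraries than in each of the 3 vehicle libraries. That is 5 of the 10 genes, where 2.02% of 16885 measured genes were lower and 2.14% were higher in all 27 extract libraries. The 10 genes were chosen with earlier results of these data known, so these directions and counts describe them and are not a test. HSPD1, the mitochondrial chaperonin, had its lowest group mean of all 13 in vehicle, but vehicle library 2 lay within the range of the extract libraries. HSPH1, HSP90AA1, HSPE1 and FKBP4 also overlapped between extract and vehicle libraries.

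**Figure D1:**
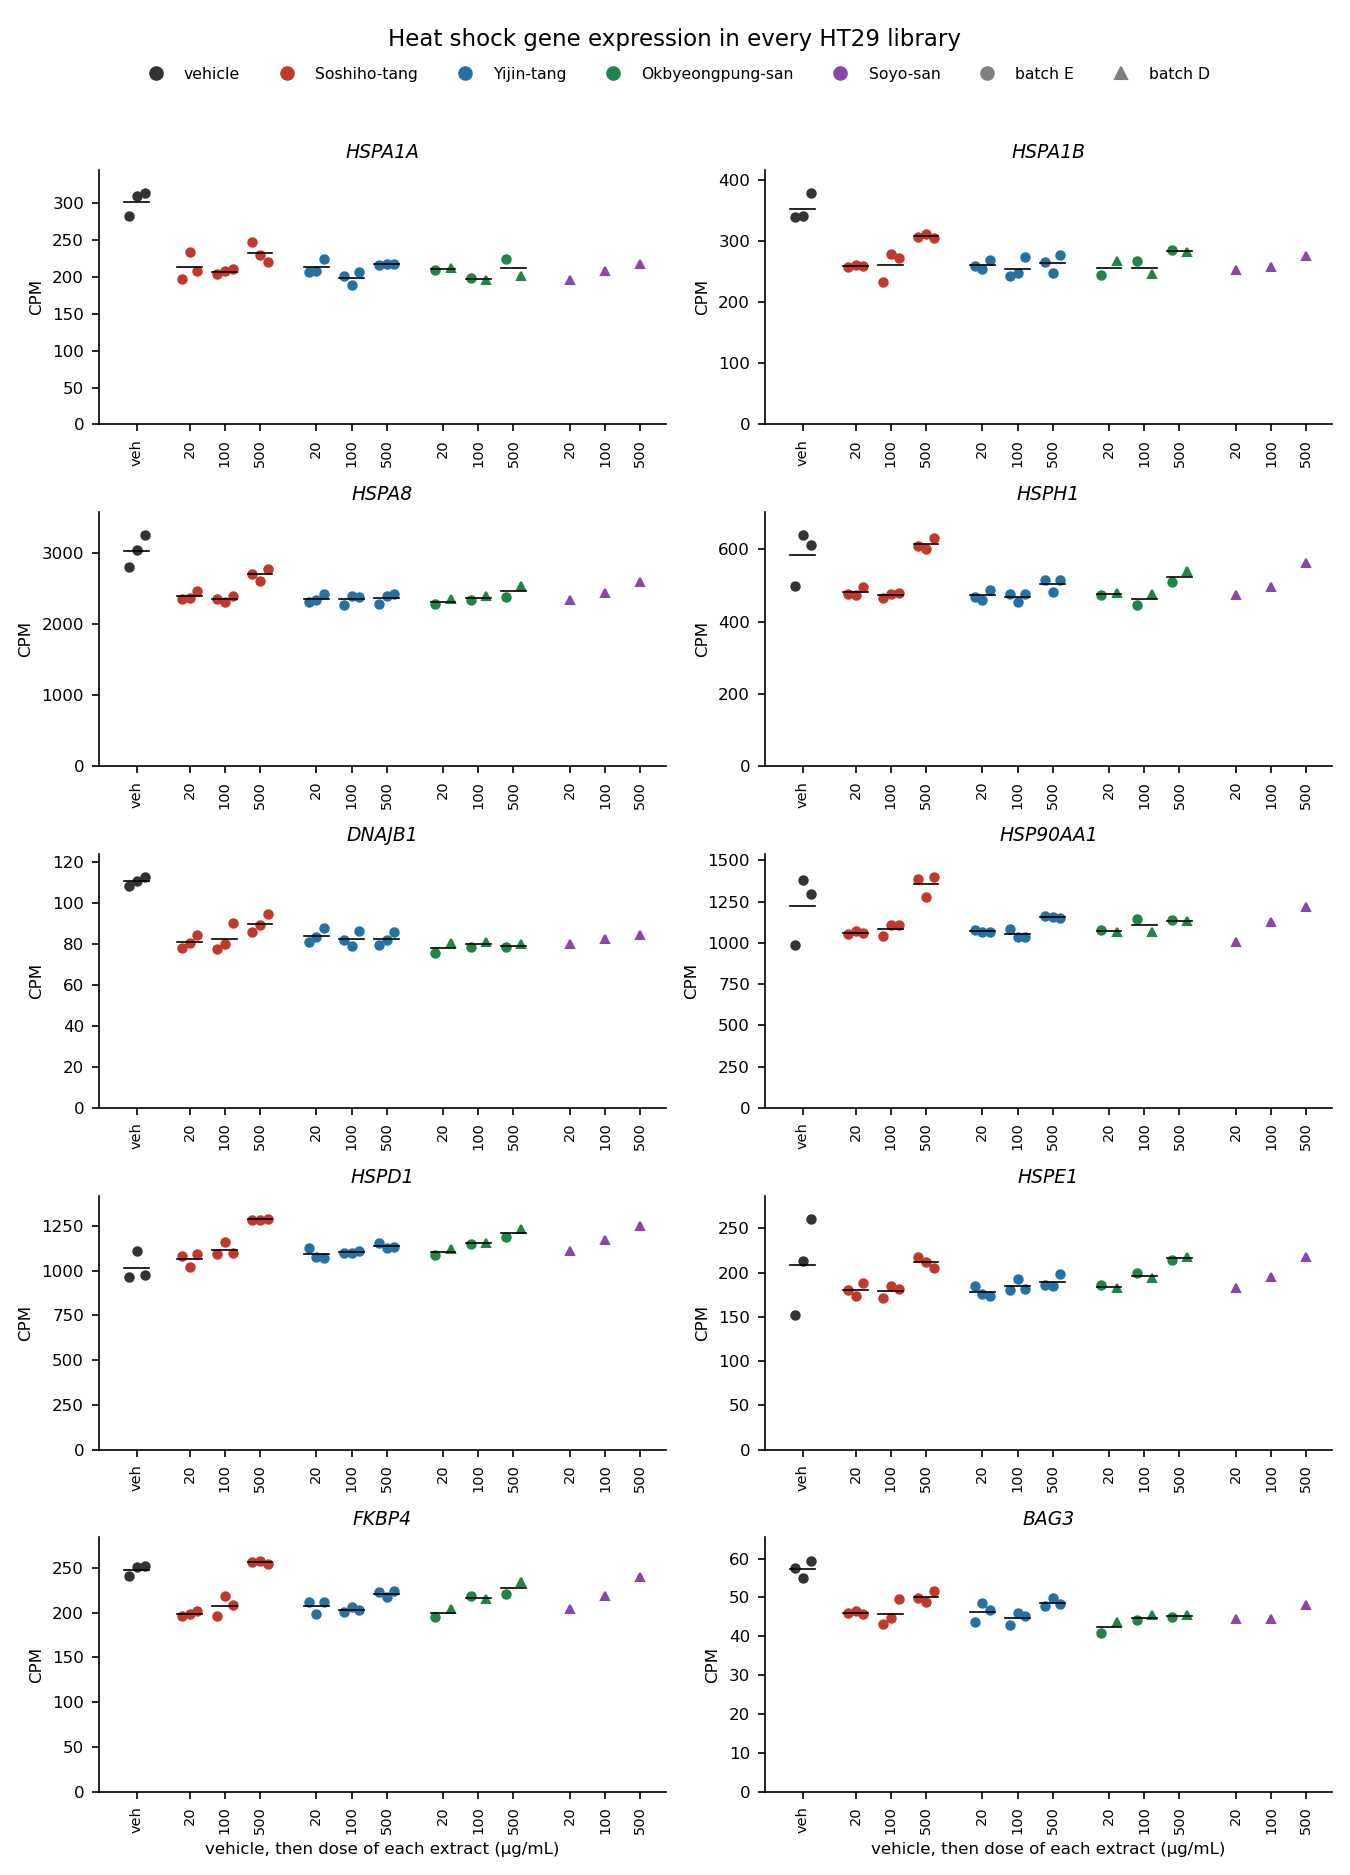
Normalised expression (CPM) of each of the 10 genes in all 30 libraries, by group, with vehicle and then 20, 100 and 500 µg/mL of each extract along the horizontal axis. Points are libraries (circles batch E, triangles batch D) and bars are group means. HSPA1A lay between 188 and 247 CPM in extract libraries and between 282 and 313 CPM in vehicle, while HSPD1 reached 1289 CPM after the high dose of Soshiho-tang and lay between 961 and 1108 CPM in vehicle.

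Counted by comparison, with edgeR's quasi-likelihood test and an adjusted p below 0.05, Soshiho-tang at the high dose had 1 gene higher and 5 lower than vehicle, where 39.2% of all genes tested passed (21% higher and 18.3% lower). The median log2 fold change was -0.06 over the 10 genes and -0.01 over all genes. At the medium dose of Soshiho-tang 1 was higher and 7 were lower (18.2% of all genes passed, 11.1% higher and 7.05% lower), and at the low dose 7 were lower (16.9% passed, 6.34% lower), with medians of -0.30 at both doses and 0.01 over all genes. For Yijin-tang against vehicle the counts were 1 higher and 7 lower at the high dose (21% passed, 12.7% higher and 8.39% lower), 1 and 7 at the medium dose (18.4% passed, 11.1% higher and 7.37% lower), and 7 lower at the low dose (17% passed, 6.66% lower). The high and the low dose of Soshiho-tang, which can be compared without vehicle, gave 7 higher and 3 that did not pass, where 26.8% of all genes passed (13.3% higher and 13.5% lower). The median of that difference was 0.24 over the 10 genes and -0.01 over all genes. The contrasts against vehicle share the 3 vehicle libraries, so their counts are not independent of each other.

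**Figure D2:**
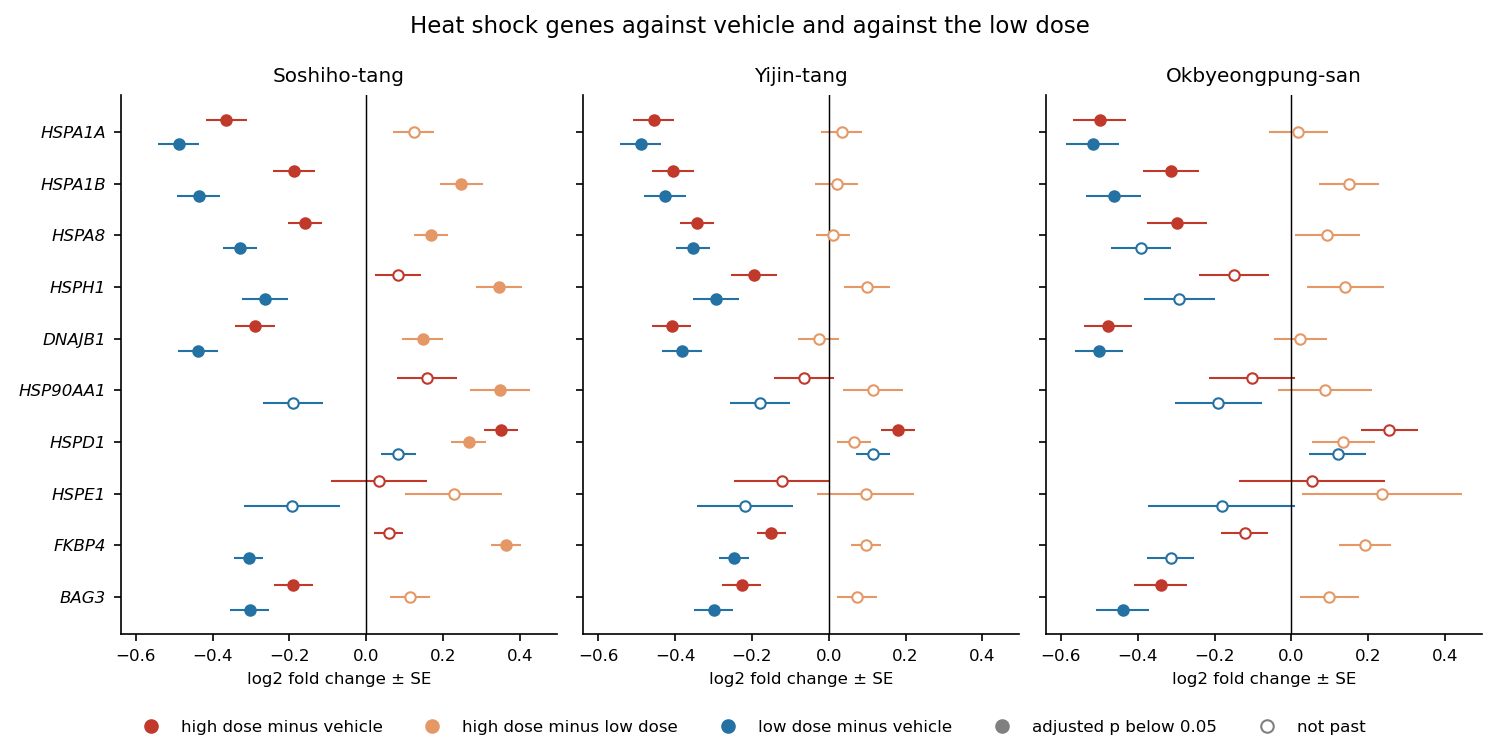
Log2 fold change with its standard error (SE) for each gene, in 1 panel per formula, for the high dose minus vehicle, the high dose minus the low dose, and the low dose minus vehicle. Filled points passed an adjusted p below 0.05. In the Soshiho-tang panel the 10 differences of high minus low dose lie between 0.11 and 0.36, all above 0, while the low dose minus vehicle lies below 0 for every gene but HSPD1.

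Among the HSP70 genes, HSPA1A (chromosome 6: 31815464 to 31817946, plus strand, ENSG00000204389), the classic stress-inducible HSP70, had 247, 230 and 220 CPM after the high dose of Soshiho-tang, against 282, 309 and 313 CPM in vehicle. The ranges did not overlap, and HSPA1A fell by 0.36 ± 0.05 (log2 fold change ± SE, adjusted p = 4.25e-06). At the low dose of Soshiho-tang HSPA1A had 198, 234 and 207 CPM, so the libraries of both doses overlapped, and high minus low was 0.12 ± 0.05 and did not pass (adjusted p = 0.0913). Yijin-tang at the high dose gave 217, 218 and 218 CPM, and HSPA1A fell by 0.46 ± 0.05 against vehicle (adjusted p = 1.54e-06). Its largest fall in these 6 contrasts was 0.59 ± 0.05 at the medium dose of Yijin-tang.

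HSPA1B (chromosome 6: 31827735 to 31830255, plus strand, ENSG00000204388), the neighbouring copy of the same protein, had 307, 312 and 305 CPM after the high dose of Soshiho-tang, against 340, 342 and 378 CPM in vehicle. It fell by 0.19 ± 0.06 against vehicle (adjusted p = 0.00797) and was higher by 0.25 ± 0.06 than at the low dose, which had 257, 260 and 259 CPM (adjusted p = 0.00144). HSPA1B at the high dose of Soshiho-tang thus lay between the low dose and vehicle, with no overlap on either side. The assignment of reads between HSPA1A and HSPA1B is uncertain. Their longest open reading frames, 1926 bases each, match at 1922 positions (99.8%), and 90.9% of 100-base windows of HSPA1B also occur in HSPA1A. HSPA1A took 41.6% to 47.3% of their joint counts in extract libraries and 45.3% to 47.5% in vehicle. With both genes summed, the high dose of Soshiho-tang exceeded the low dose by 0.19 (adjusted p = 0.00293).

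HSPA8 (chromosome 11: 123057489 to 123063230, minus strand, ENSG00000109971), the constitutive HSP70 that also drives clathrin uncoating, was the most abundant of the 10 genes per length, with 497 CPM per kilobase of exon in extract libraries and 625 in vehicle. It had 2706, 2601 and 2776 CPM after the high dose of Soshiho-tang, against 2807, 3037 and 3246 CPM in vehicle. It fell by 0.16 ± 0.04 (adjusted p = 0.00508), a call that was lost when only these 6 libraries were fitted (adjusted p = 0.0941). At the low dose HSPA8 had 2348, 2369 and 2464 CPM, and high minus low was 0.17 ± 0.04 (adjusted p = 0.00528). HSPA8 fell by 0.33 to 0.36 against vehicle at the low and medium doses of Soshiho-tang and at all 3 doses of Yijin-tang.

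Of the partners of HSP70, HSPH1 (chromosome 13: 31134974 to 31162388, minus strand, ENSG00000120694), an HSP110 protein that exchanges its nucleotide, had 608, 601 and 632 CPM after the high dose of Soshiho-tang, against 498, 639 and 613 CPM in vehicle. These ranges overlapped, and the difference of 0.08 ± 0.06 did not pass (adjusted p = 0.288). The low dose of Soshiho-tang had 477, 473 and 496 CPM, all below vehicle, and HSPH1 fell by 0.26 ± 0.06 there (adjusted p = 0.00339). High minus low was 0.35 ± 0.06 (adjusted p = 0.000102), with every high-dose library above every low-dose library. Yijin-tang at the high dose had 516, 482 and 516 CPM and fell by 0.19 ± 0.06 against vehicle (adjusted p = 0.0208), but the ranges overlapped and the call was lost without vehicle library 2 (-0.14, adjusted p = 0.058) and without vehicle library 3 (-0.17, adjusted p = 0.0675). When only the groups compared were fitted, HSPH1 was no longer called as lower than vehicle at the low and medium doses of Soshiho-tang or at any dose of Yijin-tang (adjusted p between 0.0566 and 0.156).

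DNAJB1 (chromosome 19: 14514770 to 14529770, minus strand, ENSG00000132002), the J-domain partner of stress-inducible HSP70, had 85.9, 89.2 and 94.5 CPM after the high dose of Soshiho-tang, against 108, 111 and 113 CPM in vehicle. It fell by 0.29 ± 0.05 (adjusted p = 5.6e-05) and by 0.38 to 0.44 at the other doses of Soshiho-tang and the 3 doses of Yijin-tang. High minus low dose of Soshiho-tang was 0.15 ± 0.05 (adjusted p = 0.0396). That call was the least firm of the 7, since leaving out a single library of either dose lifted the adjusted p to between 0.0707 and 0.199 in 4 of 6 cases. BAG3 (chromosome 10: 119651370 to 119677819, plus strand, ENSG00000151929), which releases clients from HSP70 towards autophagy, had 49.7, 48.7 and 51.6 CPM after the high dose of Soshiho-tang, against 57.6, 55.0 and 59.5 CPM in vehicle. It fell by 0.19 ± 0.05 (adjusted p = 0.00392), and by 0.30 ± 0.05 at the low dose. High minus low was 0.11 ± 0.05 and did not pass (adjusted p = 0.111), although its libraries did not overlap.

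In the HSP90 arm, HSP90AA1 (chromosome 14: 102080738 to 102139699, minus strand, ENSG00000080824), the stress-inducible HSP90, had 1389, 1276 and 1399 CPM after the high dose of Soshiho-tang, against 988, 1381 and 1296 CPM in vehicle. Vehicle library 1 was lower than all 27 extract libraries for this gene, whose lowest was 1005 CPM, whereas the other two vehicle libraries lay near the high dose of Soshiho-tang. The difference from vehicle was 0.16 ± 0.08 and did not pass (adjusted p = 0.121), but it passed at 0.24 without vehicle library 2 (adjusted p = 0.00801). The low dose of Soshiho-tang had 1056, 1073 and 1059 CPM. High minus low was 0.35 ± 0.08 (adjusted p = 0.00266). Low minus vehicle was -0.19 ± 0.08 (adjusted p = 0.109) and passed at -0.33 without vehicle library 1 (adjusted p = 1.49e-07).

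FKBP4 (chromosome 12: 2794953 to 2805423, plus strand, ENSG00000004478), the immunophilin of HSP90 and steroid receptor complexes, had 257, 259 and 254 CPM after the high dose of Soshiho-tang, against 241, 252 and 252 CPM in vehicle. The high-dose libraries were all above vehicle, yet the difference of 0.06 ± 0.04 did not pass (adjusted p = 0.241). The low dose of Soshiho-tang had 197, 199 and 202 CPM, so FKBP4 fell by 0.31 ± 0.04 against vehicle there (adjusted p = 4.92e-06). High minus low was 0.36 ± 0.04 (adjusted p = 3.02e-08), the smallest adjusted p of the 10 genes in that comparison. FKBP4 at the high dose of Yijin-tang had 224, 217 and 224 CPM and fell by 0.15 ± 0.04 against vehicle (adjusted p = 0.00569), a call lost when only these groups were fitted (adjusted p = 0.0785).

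HSPD1 (chromosome 2: 197486581 to 197516737, minus strand, ENSG00000144381), the mitochondrial HSP60, was the only 1 of the 10 genes that rose against vehicle in any fit as reported here. It had 1284, 1283 and 1289 CPM after the high dose of Soshiho-tang, against 961, 1108 and 973 CPM in vehicle, and rose by 0.35 ± 0.04 (adjusted p = 4.38e-07). The low dose of Soshiho-tang had 1083, 1023 and 1095 CPM, and high minus low was 0.27 ± 0.04 (adjusted p = 4.21e-05). HSPD1 therefore stood above both comparators at the high dose of Soshiho-tang, with no overlap. It also rose at the high dose of Yijin-tang, where the libraries had 1157, 1128 and 1133 CPM (0.18 ± 0.04, adjusted p = 0.00434), but that call was lost when only these groups were fitted (0.17, adjusted p = 0.141). The rises at the medium doses of Soshiho-tang (0.15 ± 0.04) and Yijin-tang (0.13 ± 0.04) were lost without vehicle library 1 (0.10 and 0.08) and without vehicle library 3 (0.11 and 0.09), and also when only the groups compared were fitted (adjusted p = 0.257 and 0.316).

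HSPE1 (chromosome 2: 197499994 to 197503457, plus strand, ENSG00000115541), the lid of the HSPD1 chamber, had 218, 213 and 206 CPM after the high dose of Soshiho-tang, against 152, 214 and 261 CPM in vehicle. Vehicle held both the lowest and the highest of all 30 libraries for this gene, and its coefficient of variation was 26.1%. The difference of 0.03 ± 0.13 did not pass (adjusted p = 0.858). The low dose of Soshiho-tang had 180, 173 and 189 CPM, all below the high dose. High minus low was 0.23 ± 0.13 in the fit that shares its spread with vehicle (adjusted p = 0.212) and 0.22 when only the 6 libraries of the 2 doses were fitted, which passed (adjusted p = 3.66e-05). HSPE1 had 15.6 to 18.1 counts per 100 HSPD1 counts in extract libraries, and 15.8, 19.3 and 26.8 in vehicle.

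**Figure D3:**
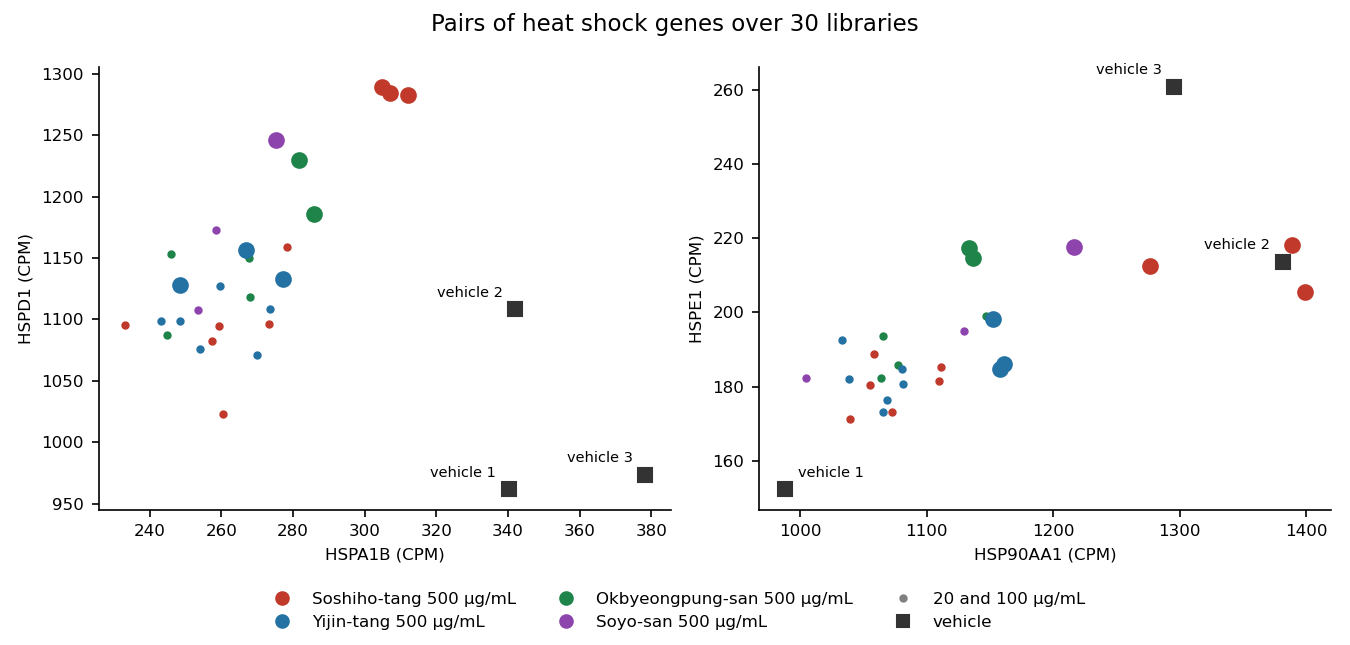
CPM of HSPD1 against HSPA1B (left) and of HSPE1 against HSP90AA1 (right) in 30 libraries. Large circles are the high doses of the 4 extracts, small dots the low and medium doses, and squares the 3 vehicle libraries. Vehicle lies at 340 to 378 CPM of HSPA1B and 961 to 1108 CPM of HSPD1, apart from the extract libraries, and its libraries spread from 152 to 261 CPM of HSPE1.

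Several of these loci share sequence with other genes, and although the library kit is directional, whether counting used strand is not given in the sources used here. HSPD1 overlaps HSPE1 and MOB4 on the opposite strand, HSPE1 overlaps the readthrough gene HSPE1-MOB4 on its own strand, DNAJB1 overlaps TECR, HSP90AA1 overlaps WDR20, and FKBP4 overlaps antisense RNAs. Expected counts were not whole in all 30 libraries for HSPA1A, HSPA1B, HSP90AA1 and HSPD1, in 29 for HSPE1 and in 15 for FKBP4, as happens where reads are divided between genes. HSPH1 and BAG3 were whole in all 30. These are also bulk libraries scaled to their totals, so fewer cells expressing a gene and less RNA per cell cannot be told apart.

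For the high dose minus the low dose of Yijin-tang, 0 of the 10 genes passed with edgeR, where 1.86% of all genes passed. At an unadjusted p below 0.05 the count was 1, FKBP4, and DESeq2 gave 0. The share of all genes at that unadjusted threshold was not counted, so this count has no background beside it. The differences lay between -0.03 for DNAJB1 and 0.11 for HSP90AA1, with a median of 0.07 over the 10 genes. The high-dose libraries were all above the low-dose libraries for 4 genes, HSP90AA1, HSPD1, HSPE1 and FKBP4, as they were for 11.5% of all genes tested. The interval of the HSPH1 difference ran from -0.02 to 0.22, and that of HSPA1A from -0.07 to 0.14. HSP90AA1 had 1161, 1158 and 1153 CPM at the high dose and 1081, 1069 and 1066 CPM at the low dose of Yijin-tang, and it passed when only these 6 libraries were fitted (0.11, adjusted p = 0.01).

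Set directly against each other at the high dose, Soshiho-tang had 5 genes higher than Yijin-tang and 5 that did not pass, where 12.9% of all genes passed (6.54% higher). HSPH1 was higher by 0.28 ± 0.06 (adjusted p = 0.00215), HSPA1B by 0.22 ± 0.06, FKBP4 by 0.21 ± 0.04, HSPA8 by 0.18 ± 0.04 and HSPD1 by 0.17 ± 0.04. HSP90AA1 was 0.22 ± 0.08 and did not pass (adjusted p = 0.0718), and BAG3 was 0.04 ± 0.05, with an interval from -0.06 to 0.14. Libraries of the 2 formulas did not overlap for 8 of the 10 genes, all with Soshiho-tang above. Non-overlap in that direction held for 17.8% of all genes tested. Whether the dose difference itself differed between formulas was tested as (high minus low) of Soshiho-tang minus that of Yijin-tang. The term was above 0 for all 10 genes, with a median of 0.19 against -0.00 over all genes, but only FKBP4 passed (0.27 ± 0.05, adjusted p = 0.00239), where 4.58% of all genes passed (2.15% higher). HSPD1 was 0.20 ± 0.06 (adjusted p = 0.0666) and HSPH1 0.25 ± 0.08 (adjusted p = 0.107).

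Okbyeongpung-san, with 2 libraries per dose, was fitted apart with vehicle. At the high dose 5 genes were lower than vehicle, where 4.38% of all genes passed (2.19% lower). HSPA1A had 224 CPM in batch E and 201 CPM in batch D and fell by 0.50 ± 0.07 (adjusted p = 0.00229), and DNAJB1 had 78.4 and 80.1 CPM and fell by 0.48 ± 0.06 (adjusted p = 0.00135). BAG3 fell by 0.34 ± 0.07, HSPA1B by 0.31 ± 0.07 and HSPA8 by 0.30 ± 0.08. HSPD1 had 1186 and 1230 CPM, both above vehicle, but 0.26 ± 0.07 did not pass (adjusted p = 0.07). With a batch term HSPA1A and DNAJB1 still passed and HSPA1B, HSPA8 and BAG3 did not (adjusted p = 0.113, 0.125 and 0.0504), and no gene was called under every alternative.

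At the medium dose of Okbyeongpung-san only 17 of 15762 genes (0.108%) passed against vehicle. Of these 10 were lower (0.0634%), and 3 of those were HSPA1A (-0.61 ± 0.07, adjusted p = 0.00621), DNAJB1 (-0.46 ± 0.06, adjusted p = 0.0113) and HSPA1B (-0.45 ± 0.07, adjusted p = 0.0291). At the low dose 43 genes (0.273%) passed, 0.133% of all as lower, among them DNAJB1, HSPA1A, BAG3 and HSPA1B, which fell by 0.50, 0.52, 0.44 and 0.46. With a batch term HSPA1B was lost at the medium dose (adjusted p = 0.153), and HSPA1A, BAG3 and HSPA1B were lost at the low dose (adjusted p = 0.0748, 0.0953 and 0.129). No gene was called under every alternative at either dose. The high dose minus the low dose gave 0 of 10 with edgeR, where 0.558% of all genes passed. It gave 1 at an unadjusted p below 0.05, a threshold at which all genes were not counted, and 0 with DESeq2. All 10 differences were above 0, at 0.02 to 0.24, although scaling by library totals turned HSPA1A to -0.00798 and DNAJB1 to -0.0023. When only these 4 libraries were fitted 5 passed, where the count over all genes was 938 in place of 88. Within batch D the difference was 0.20 for FKBP4, 0.25 for HSPE1 and -0.08 for HSPA1A, and within batch E it was 0.18, 0.21 and 0.10.

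For Soyo-san there was 1 library per dose, all in batch D, and none of the 30 libraries is a batch D vehicle. Its values therefore have no replicate check and no test. HSPD1 had 1107, 1173 and 1246 CPM at the low, medium and high dose of Soyo-san, HSPH1 had 474, 496 and 562 CPM, and FKBP4 had 204, 219 and 240 CPM. HSPA1A had 195, 208 and 218 CPM and DNAJB1 had 80.1, 82.4 and 84.5 CPM, all below the lowest vehicle library. The high dose had the highest value of the 3 libraries for all 10 genes, and 9 of the 10 were in the order of dose. By group means the high dose was also the highest of the 3 doses for all 10 genes with Soshiho-tang and for 9 each with Yijin-tang and Okbyeongpung-san. The medium dose of Soshiho-tang was above its low dose for only 5. These orders were not counted over all genes. The 10 genes also vary together, with a median Pearson's r of 0.67 over their 45 pairs in the extract libraries, so the counts are not independent.

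Ordered by group mean, vehicle was the highest of the 13 groups for 5 genes and the high dose of Soshiho-tang for 4 (HSPH1, HSP90AA1, HSPD1 and FKBP4). Soyo-san at the high dose was highest for HSPE1. The highest group was not counted over all genes. For HSPA1A, HSPA1B, HSPA8 and DNAJB1 the order began with vehicle and then Soshiho-tang at the high dose, with no overlap between these 2 or with the next group. That next group was the 1 Soyo-san library at the high dose for HSPA1A, HSPA8 and DNAJB1. Groups further down did overlap Soshiho-tang at the high dose for HSPA1A and DNAJB1. Its low dose reached 234 CPM of HSPA1A against 220 to 247 CPM, and its medium dose 90.3 CPM of DNAJB1 against 85.9 to 94.5 CPM. Other formulas overlapped it too. HSPA1A reached 225 CPM at the low dose of Yijin-tang and 224 CPM at the high dose of Okbyeongpung-san. DNAJB1 reached 88.0, 86.4 and 86.1 CPM at the low, medium and high doses of Yijin-tang. HSPA1A averaged 232 ± 13.7 CPM (SD, n = 3) in Soshiho-tang at the high dose and 301 ± 16.9 CPM in vehicle. Below those, most neighbouring groups overlapped. Over the 18 low-dose and medium-dose libraries of the 4 formulas HSPH1 kept to 447 to 496 CPM and BAG3 to 40.8 to 49.5 CPM. All 3 high-dose Soshiho-tang libraries exceeded that range for HSPA1B, HSPA8, HSPH1, HSP90AA1, HSPD1, HSPE1 and FKBP4, as they did for 11.4% of all genes measured. For HSPA1A and for DNAJB1 1 of the 3 libraries exceeded it, and for BAG3 2 did.

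The wider chaperone network was described with 9 further lists of 104 genes. In the high dose minus the low dose of Soshiho-tang the counts below stand against 13.3% of all genes higher and 13.5% lower. Of 13 other HSP90 genes and co-chaperones 8 rose (median 0.17), among them the p23 co-chaperone PTGES3 (0.24 ± 0.04, adjusted p = 4.36e-05), the HSP70-HSP90 adaptor STIP1 (0.21 ± 0.04) and the HSP90 ATPase activator AHSA1 (0.21 ± 0.05). Of 14 subunits of the cytosolic chaperonin TRiC and of prefoldin 10 rose (median 0.20), including CCT5 (0.24 ± 0.04). Of 12 other mitochondrial chaperones and proteases 8 rose (median 0.15), with the matrix HSP70 gene HSPA9 at 0.25 ± 0.04 and its exchange factor GRPEL1 at 0.34 ± 0.04. Of 15 chaperones of the endoplasmic reticulum 14 rose (median 0.33).

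In the remaining lists smaller shares of genes passed. Of 8 other HSP70 and HSP110 genes 2 rose, HSPA13 (0.56 ± 0.07) and HSPA14 (0.21 ± 0.04), a share near the 26.8% of all genes that passed. Of 13 other J-domain proteins 4 rose and 2 fell, and of 9 other BAG and HSP70 exchange or quality control factors 4 rose, with the autophagy receptor SQSTM1 at 0.54 ± 0.03. The small heat shock gene HSPB1 fell by 0.50 ± 0.07 against the low dose and by 0.61 ± 0.07 against vehicle, with means of 92.2 CPM at the high dose of Soshiho-tang, 130 CPM at its low dose and 142 CPM in vehicle. Of 14 heat shock factors and other HSF1 targets 6 rose and 1 fell. HSF1 itself, the master regulator, averaged 103 CPM at the high dose and 102 CPM at the low dose and in vehicle (0.01 ± 0.06 and 0.02 ± 0.06, neither passed). HSPA6, an HSP70 made almost only under strong stress, averaged 0.328 CPM at the high dose of Soshiho-tang, 0.18 CPM at the low dose and 0.385 CPM in vehicle, and did not pass.

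Against vehicle the same lists gave other counts. At the high dose of Soshiho-tang, where 5 of the 10 were lower, 8 of 14 TRiC and prefoldin genes, 7 of 12 other mitochondrial genes and 10 of 15 endoplasmic reticulum chaperones were higher, with medians of 0.13, 0.16 and 0.27, where 21% of all genes were higher. At the low dose of Soshiho-tang 3 of 13 HSP90 genes and co-chaperones were lower, namely STIP1 (-0.23 ± 0.04), AHSA1 (-0.15 ± 0.05) and the kinase adaptor CDC37 (-0.24 ± 0.05), and so was the J-domain gene DNAJA1 (-0.24 ± 0.05), where 6.34% of all genes were lower. The constitutive HSP90 gene HSP90AB1 was -0.04 ± 0.04 at the low dose and rose by 0.16 ± 0.04 at the high dose against vehicle. No test of the difference between lists was made.

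**Figure D4:**
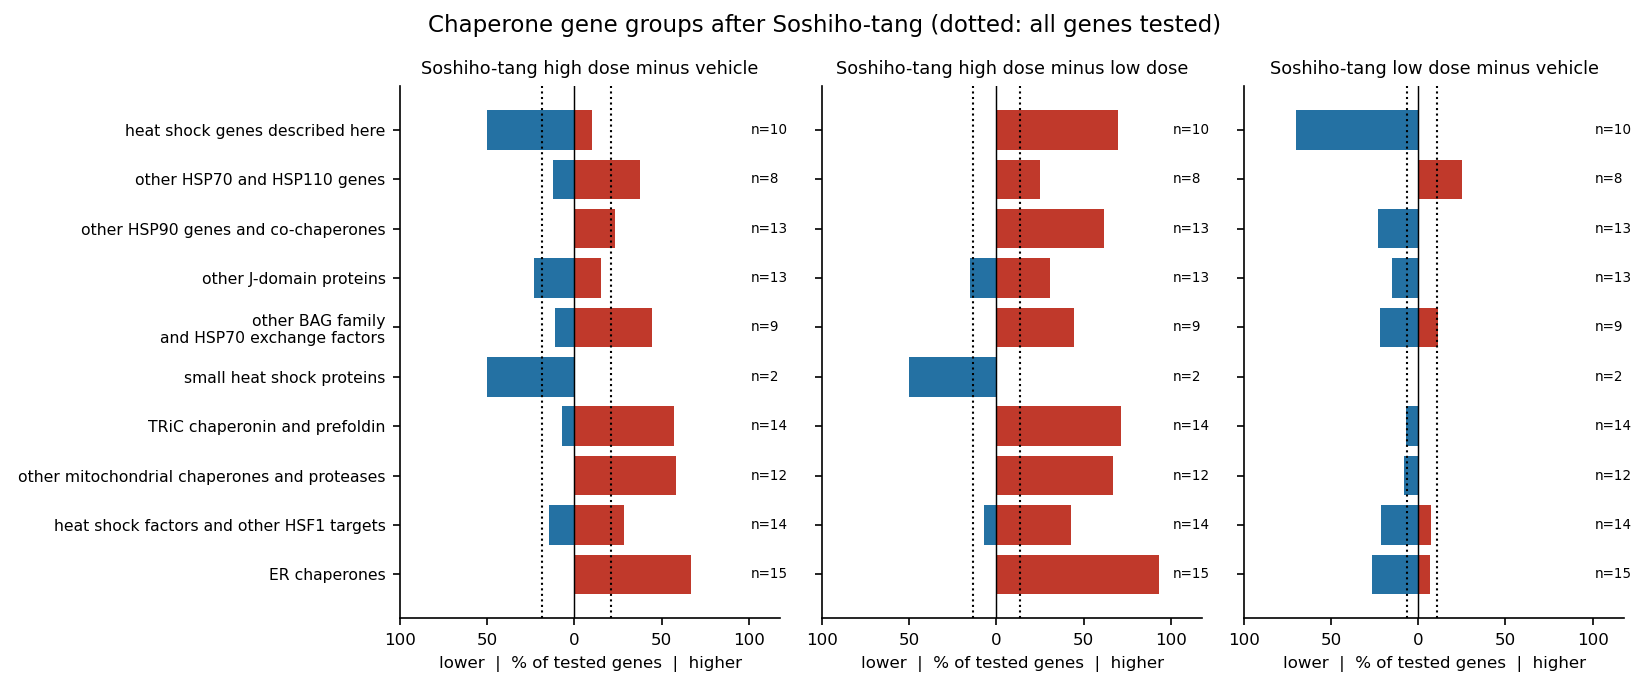
Share of the tested genes in each list that passed an adjusted p below 0.05, to the right of 0 for higher and to the left for lower, in 3 Soshiho-tang comparisons. Dotted lines give the same share over all 15882 genes tested, 13.3% higher and 13.5% lower for the high minus the low dose, where 7 of the 10 heat shock genes and 14 of 15 endoplasmic reticulum chaperones were higher.

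Likeness to the 10 genes was measured as Pearson's r with their mean log2 CPM over the 27 extract libraries, which share formulas, doses and library sets. The 5 closest of the genes above 5 CPM were GPAT3, a glycerol-phosphate acyltransferase (0.955), GCLM, the modifier subunit of glutathione synthesis (0.953), NAMPT, an enzyme of NAD salvage (0.953), ERRFI1, a feedback inhibitor of the EGF receptor (0.942), and DCBLD2, a membrane receptor (0.941). Over all 30 libraries, vehicle included, r was 0.560 for GPAT3, 0.323 for GCLM, 0.485 for NAMPT, 0.759 for ERRFI1 and 0.473 for DCBLD2, and the closest gene was STIP1 (0.953). Among the 10 genes the 45 pairs had r between 0.22 and 0.94 over the 27 extract libraries. With vehicle added 5 pairs fell below 0, all with HSPD1.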

How the data were processed

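RNA-seq of 30 HT29 libraries in 13 groups was analysed from 1 table. The deposited values are RSEM expected counts per gene, estimates that the authors made and that are not normalised between libraries. Per the submitters' processing notes, RSEM 1.3.3 and STAR 2.7.3a were used on GRCh38, along with Trim Galore 0.6.5 and FastQC 0.11.9. Which gene annotation was counted is not given in the sources used here. A further 30 columns with no name and no values were not used. Groups came from the sample labels.

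Expected counts were rounded to whole numbers. In R 4.3.3, edgeR 4.0.16 filtered genes with filterByExpr, scaled libraries by TMM and compared groups with the quasi-likelihood F-test with Benjamini-Hochberg adjustment over all genes tested. Vehicle, Soshiho-tang and Yijin-tang shared a fit (21 libraries, 15882 genes, biological coefficient of variation 4.71%), and vehicle and Okbyeongpung-san shared another (9 libraries, 15762 genes, 7.03%). All groups of a fit share 1 estimate of spread per gene, so an SE against vehicle rests partly on extract libraries. Chi-square per degree of freedom between libraries of a group was 11.2 to 20.6 in vehicle. It was 2.41 to 7.02 in Soshiho-tang and Yijin-tang groups and 2.49 to 10.4 in Okbyeongpung-san groups, and it also grows with total counts. Every adjusted p for a single gene is from this test unless another tool is named. Each SE is the size of the log2 fold change divided by the square root of its F statistic. Intervals are the log2 fold change ± 1.96 SE. That factor is for a normal distribution, so an interval can be narrower than the test implies. CPM values are TMM-normalised over all 30 libraries. Soyo-san was compared by value only, on log2 CPM with a prior count of 2. Total counts of 18.5 M to 36.2 M set the counting precision. On data simulated for the high dose of Soshiho-tang against vehicle, 21, 30, 41 and 44 of 50 genes were recovered at 1.2-fold, 1.3-fold, 1.5-fold and 2-fold, with 6 unchanged genes called, among 15766 genes. Most fold changes reported here are of the smaller of these sizes. The simulation gave all genes and groups the same coefficient of variation, whereas the vehicle libraries varied more than the extract libraries. Its recovery may therefore not hold for comparisons against vehicle.

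The 10 genes, the lists and the tests were chosen with earlier results of these data known. The text names the 10 genes in each comparison, HSF1, HSF2, HSPA5, HSP90AB1, HSPB1, HSPA9, HSPA6, STIP1, AHSA1, DNAJA1 and CCT2 where they help, up to 3 called genes per list with the smallest adjusted p, and the 5 genes of highest likeness. Gene coordinates are from GENCODE 29 and promoter sequences from RefSeq (GRCh38.p14). Alternatives were other scalings, no filter, DESeq2 1.42.0, a replicate block, a batch term, separate fits, HSPA1A and HSPA1B summed, and leaving out each library. Same-numbered replicates did not deviate together, so they were treated as unpaired.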

Additional observations from a re-analysis of the deposited data

Results flagged for a closer look

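The difference of the high minus the low dose was larger with Soshiho-tang than with Yijin-tang for FKBP4, by 0.27 ± 0.05 on the log2 scale (adjusted p = 0.00239, edgeR interaction term). FKBP4 had 257, 259 and 254 CPM at the high dose and 197, 199 and 202 CPM at the low dose of Soshiho-tang, and 224, 217 and 224 CPM at the high dose and 212, 199 and 212 CPM at the low dose of Yijin-tang. The other 9 genes did not pass, and their terms lay between 0.04 and 0.25.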

How the results depend on the processing

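Of 186 recounts of the 10 genes under other settings, 31 moved, that is by more than 1.5 times or to or from 0. Against vehicle, the count for Yijin-tang at the high dose was 5 in place of 8 when only the groups compared were fitted. For Okbyeongpung-san at the high dose (5) it was 2 with only the groups compared, 2 with a batch term, and 1 to 8 with a library left out. At its medium dose (3) it was 6 with no filter, 6 with DESeq2, 6 with the replicate block, 1 with only the groups compared, and 0 to 7 with a library left out. At its low dose (4) it was 7 with no filter, 7 with DESeq2, 9 with the replicate block, 2 with only the groups compared, 1 with a batch term, and 0 to 9 with a library left out. In the Okbyeongpung-san fit only vehicle has a library numbered 1, so the replicate block there in effect sets vehicle library 1 aside. At the low dose HSPE1 was -0.362 with the block and -0.363 without that library, so these 2 settings are not separate alternatives. Fitting only the groups compared gave 1 in place of 0 for the high minus the low dose of Yijin-tang and 5 in place of 0 for that of Okbyeongpung-san. It gave 8 in place of 5 for Soshiho-tang against Yijin-tang. The interaction count of 1 was 4 with no filter, 2 with DESeq2, 6 with only the groups compared, and 1 to 2 with a library left out. Counts over all genes also moved. With only the groups compared they were 1040 in place of 3343 for Yijin-tang at the high dose against vehicle. For high minus low they were 869 in place of 295 with Yijin-tang and 938 in place of 88 with Okbyeongpung-san. For the interaction they were 1352 in place of 727. For Okbyeongpung-san against vehicle DESeq2 gave 157 in place of 17 at the medium dose and 545 in place of 43 at the low dose. The replicate block gave 90 and 468 at these doses. With only the groups compared the count was 216 in place of 690 at the high dose, 3 at the medium dose and 18 at the low dose. A batch term gave 155, 6 and 5 at the high, medium and low doses. Leaving out a library moved these counts as well, so the counts of the 10 genes did not move alone. The cause of these changes, including the part of the wider spread of the vehicle libraries, was not tested.

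For 13 differences that did not pass as reported, the sign changed in 21 recounts in all. With 1 library left out, HSPE1 against vehicle ranged from -0.17 to 0.21 at the high dose of Soshiho-tang, from -0.33 to 0.053 and from -0.36 to 0.017 at the high and medium doses of Yijin-tang, and from -0.13 to 0.24, -0.27 to 0.10 and -0.36 to 0.011 at the high, medium and low doses of Okbyeongpung-san. The replicate block, which in that fit in effect sets vehicle library 1 aside, gave -0.13 for HSPE1 at the high dose of Okbyeongpung-san. HSPH1 at the high dose of Soshiho-tang ranged from -0.035 to 0.14 and HSP90AA1 at the high dose of Yijin-tang from -0.21 to 0.015. For the high minus the low dose the ranges were -0.00997 to 0.035 for HSPA8, -0.018 to 0.056 for HSPA1B and -0.062 to 0.00029 for DNAJB1 with Yijin-tang, and -0.063 to 0.091 for HSPA1A and -0.023 to 0.066 for DNAJB1 with Okbyeongpung-san. Scaling by library totals gave -0.00798 for HSPA1A and -0.0023 for DNAJB1 in the last comparison. Of these, 1 passed, HSPE1 at -0.17 without vehicle replicate 1 (adjusted p = 0.0427). With that library left out, HSP90AA1 and HSPE1 passed as lower at the low and medium doses of Soshiho-tang and at all 3 doses of Yijin-tang. For the high minus the low dose of Soshiho-tang 6 of the 7 calls held under every alternative, DNAJB1 being the exception, and 5 of 6 held at the high dose against vehicle, HSPA8 being the exception. Over all genes, fitting only the groups compared gave 362 in place of 2691 for the low dose of Soshiho-tang against vehicle, and no filter gave 431 in place of 17 and 1115 in place of 43 for the medium and low doses of Okbyeongpung-san. Over 30 libraries likeness was 0.560 for GPAT3, 0.323 for GCLM, 0.485 for NAMPT, 0.759 for ERRFI1 and 0.473 for DCBLD2. The labels share replicate numbers, but same-numbered samples did not deviate together (r between -0.13 and 0.06 over all pairs checked). The replicate block also gave 6 in place of 5 for Soshiho-tang against Yijin-tang. For Okbyeongpung-san at the high dose against vehicle, where the block in effect sets vehicle library 1 aside, it gave 7 in place of 5. It changed no other count of the 10 genes beyond those given above. Scaling by library totals or by DESeq2's size factors moved the median of all genes by less than 0.06. With 2 libraries a dose, Okbyeongpung-san simulations recovered 3 of 50 genes at 1.2-fold and 20 at 1.3-fold, also with the same spread for all genes and groups.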
